A study of Mus musculus with 14 samples.

Results

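Mouse embryonic fibroblasts (MEFs) were set against 6 groups of mouse pluripotent cells. The members were chosen by sample title: the 2 MEF arrays, and the 12 arrays of the 6 pluripotent groups, which together make up all 14 arrays. For every gene the contrast was the MEF mean minus the mean of the 6 pluripotent group means, each group weighted equally. The study asks how the distal and the proximal enhancer of Oct4 (Pou5f1) work in naive and primed cells, and the fibroblasts are its only non-pluripotent group. All groups are of strain C57/B6 and have 2 arrays each. The labels of the MEF arrays give cell type and strain only. They name no embryonic stage, passage, transgene or sorting gate. Of the pluripotent groups, 4 came from the double-reporter line O4-DE-GFP/O4-PE-RFP, in which the distal enhancer drives GFP and the proximal enhancer drives the red protein tdTomato (RFP). They were embryonic stem cells (ESCs) in serum and LIF gated GFP+RFP+, ESCs in serum and LIF gated GFP+RFP-, ESCs in N2B27 with LIF and the inhibitors CHIR99021 (3 μM) and PD0325901 (1 μM), called 2i, gated GFP+RFP-, and epiblast-like cells (EpiLCs) gated GFP-RFP+. The other two groups were epiblast stem cells (EpiSCs) from epiblasts of embryonic day 6.5 (the label of replicate 2 reads 6.6), with no transgene named, and ESCs of the single-reporter line O4-DE-GFP in serum and LIF. No gate is named for these last 2 groups, although the series' design text says that RNA came from cells sorted by flow cytometry.
Fibroblasts are mesenchymal cells that build the collagenous matrix of connective tissue, pull on it through actin stress fibres and focal adhesions, and keep a record of their body position in the Hox genes they express. Pluripotent cells grow as tight epithelial colonies, divide fast with a short G1 phase, and depend on a network of transcription factors around Oct4, Sox2 and Nanog. ESCs resemble the preimplantation epiblast (naive), and EpiLCs and EpiSCs the epiblast after implantation (primed). MEFs serve both as feeder layers for ESCs and as the usual starting cell for reprogramming to pluripotency.
Most genes differed between the fibroblasts and the pluripotent mean. A level here is the log2 of an array signal after background correction and quantile normalization, and a difference is in log2 units, where 1 stands for 2-fold. The brightest probe stood for a gene, among probes detected (detection p under 0.05) in the 2 arrays of 1 or more groups, and 10481 genes had such a probe. A gene detected on only 1 side of the contrast passed this filter through that side alone. That held for 135 genes detected on no pluripotent array and 1987 detected on no MEF array. Their direction was thus largely set by the filter, and their p-values compare a signal with background. In a limma fit over all 14 arrays, called genes had a Benjamini-Hochberg adjusted p under 0.05 over all 10481. There were 8799 called genes (84% of those tested), of which 4176 were higher in MEFs (39.8%) and 4623 lower (44.1%). At least a 2-fold change was found in 2333 of the higher genes (22.3% of all tested) and 2319 of the lower ones (22.1%). Both MEF arrays lay above all 12 pluripotent arrays for 2751 genes (26.2%) and below all 12 for 2783 (26.6%). The median difference over all genes was -0.09, and the median half-width of a 95% confidence interval was 0.22. The pluripotent groups also differed among themselves: a moderated F test over their 6 means called 9411 genes (89.8%). When the 12 pluripotent arrays were instead fitted as 1 group with the labelled group as a random block (the group-block fit), 2632 genes were called, 1191 higher (11.4%) and 1441 lower (13.7%), so the size of the count depends on whether arrays or groups are taken as the units. Calls in a gene list below are to be read against the shares over all genes. These were 39.8% higher and 44.1% lower, and 11.4% and 13.7% in the group-block fit. Nothing in the labels says that the 2 arrays of a group came from separate cultures, so p-values measure the spread between arrays, which may be technical. Signal is per amount of RNA in a bulk sample, so fewer cells of a type and less RNA per cell cannot be told apart.

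**Figure D1:**
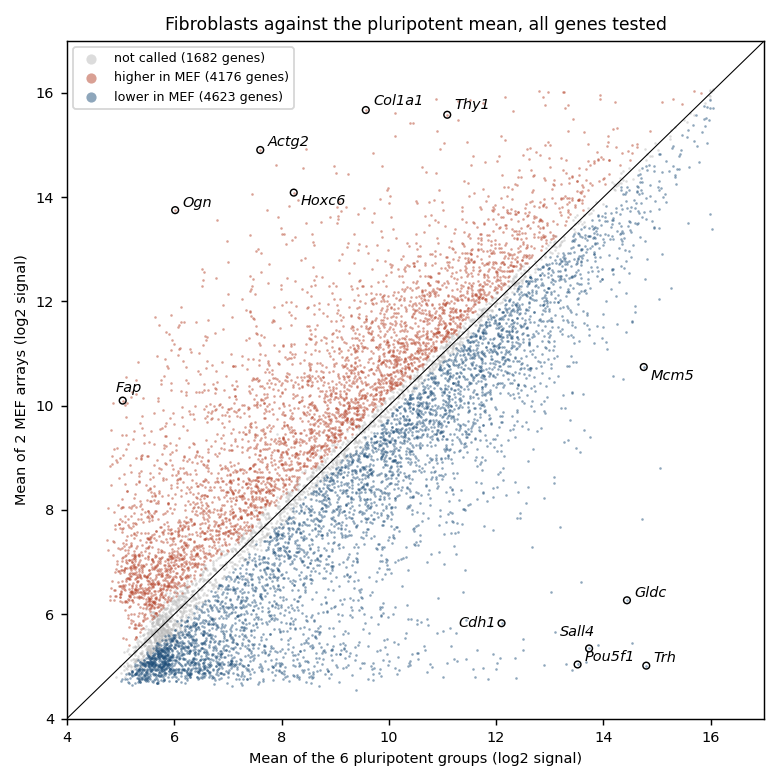
Each point is 1 of 10481 genes; the vertical axis is the mean of the 2 MEF arrays and the horizontal axis the mean of the 6 pluripotent group means, both in log2 signal, and the line marks equal levels. Red points are the 4176 genes called higher in MEFs, blue points the 4623 called lower and grey points the rest; circles mark named genes, with Col1a1, Thy1, Actg2, Ogn, Hoxc6 and Fap far above the line and Pou5f1, Sall4, Trh, Gldc, Cdh1 and Mcm5 far below it.

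The arrays carried 25697 probes, of which 46.4% and 46.5% were detected on the MEF arrays, against 49.9% to 53.8% on the pluripotent arrays. Median scanner signals were 209.4 and 190.3 on the MEF arrays, against 142.6 to 192.5 on 10 pluripotent arrays and 313.5 and 316.8 on the EpiSC arrays. The 2 arrays of a group correlated at 0.997 to 0.998 across genes, except the EpiSC pair at 0.976. EpiSC replicate 2 had higher signal for fibroblast-type lists than EpiSC replicate 1, and the O4-DE-GFP serum ESC arrays had the highest among the pluripotent groups for several of them. The mesenchymal surface list averaged 10.98 and 10.998 on the MEF arrays, against 8.98 and 9.02 on the O4-DE-GFP arrays, 6.84 and 7.89 on the EpiSC arrays and 7.002 and 6.90 on the EpiLC arrays. The part of either feature in the results was not tested, and without both of these groups 4265 genes were called higher and 4864 lower. Markers matched the MEF label in that 17 of 20 mesenchymal surface genes were higher in MEFs. All 15 tested core pluripotency genes were lower, and 11 of those 15 were not detected on either MEF array. These 11 passed the filter through pluripotent groups alone, so their lower calls are no independent support.
The core pluripotency factors were lower in MEFs without exception among the 15 of 18 that could be tested, by a median of -6.71, and for 14 of them both MEF arrays lay below all 12 pluripotent arrays. The group-block fit called 10 of the 15. For the 11 that were not detected on either MEF array the filter largely set the direction. Pou5f1, the POU factor whose enhancers the study dissects, had levels of 4.84 and 5.23 in MEFs, against a lowest of 13.01, a median of 13.57 and a highest of 13.80 in pluripotent cells. Neither MEF value was above background, and the pluripotent arrays sat in a narrow band far above them. Where a gene was not detected on either MEF array, its level is only a bound, and the fold is that of the pluripotent mean over the lowest detected signal on each MEF array or the gene's own signal, whichever was higher. On that reading Pou5f1 was at least 162-fold lower in MEFs (adjusted p = 2.03e-12). Sall4, a zinc-finger partner of Oct4, had 5.52 and 5.17 in MEFs, against a lowest of 13.27, a median of 13.65 and a highest of 14.17 in pluripotent cells, at least 188-fold lower (adjusted p = 1.49e-12). Nanog, the homeobox factor of the naive network, was detected at 6.62 and 6.62 in MEFs, against a lowest of 12.64, a median of 13.61 and a highest of 14.09 in pluripotent cells. Its difference was -6.96 ± 0.071 (SE), or 124-fold (adjusted p = 1.49e-12), and the 2 sets of arrays were separated by more than the whole spread among the pluripotent ones. Utf1, a chromatin-bound factor of undifferentiated cells, was at least 57.3-fold lower in MEFs, and the RNA-binding repressor Lin28a at least 24.1-fold lower.
Not all of these genes were evenly high in the pluripotent groups. Sox2, the partner of Oct4 on many enhancers, had 5.54 and 5.83 in MEFs, where it was not detected, against 10.10 and 9.89 in 2i ESCs, 6.76 and 6.63 in EpiLCs and 5.93 and 6.32 in EpiSCs. The MEF arrays were the lowest of the 14 for Sox2, but the EpiSC arrays lay only slightly above them. Dppa5a, an RNA-binding protein of pluripotent cells, had 5.54 and 5.36 in MEFs, against 16.06 and 16.04 in 2i ESCs, 11.35 and 11.24 in EpiLCs, and 14.19 and 9.30 in EpiSCs, whose 2 arrays lay far apart. Against the mean of the 6 groups it was at least 328-fold lower in MEFs (adjusted p = 3.47e-06). Dppa4, a DNA-binding partner of Dppa2, had 4.70 and 4.85 in MEFs, against 14.55 and 14.55 in serum GFP+RFP+ ESCs, 8.56 and 8.63 in EpiLCs and 11.07 and 5.81 in EpiSCs. Trim28, a corepressor that silences transposons, was detected on every array, at 12.91 and 12.91 in MEFs and 14.26 to 15.76 in pluripotent cells, 4.57-fold lower in MEFs (adjusted p = 2.18e-10). Fgf4, an FGF ligand of the epiblast, was the 1 core gene whose MEF arrays were not below all others; it was not detected in MEFs or on 4 of the 12 pluripotent arrays (adjusted p = 7.93e-06). In the group-block fit the calls of Sox2, Dppa5a, Dppa4 and Fgf4 were lost (adjusted p = 0.0835 to 0.255).

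**Figure D2:**
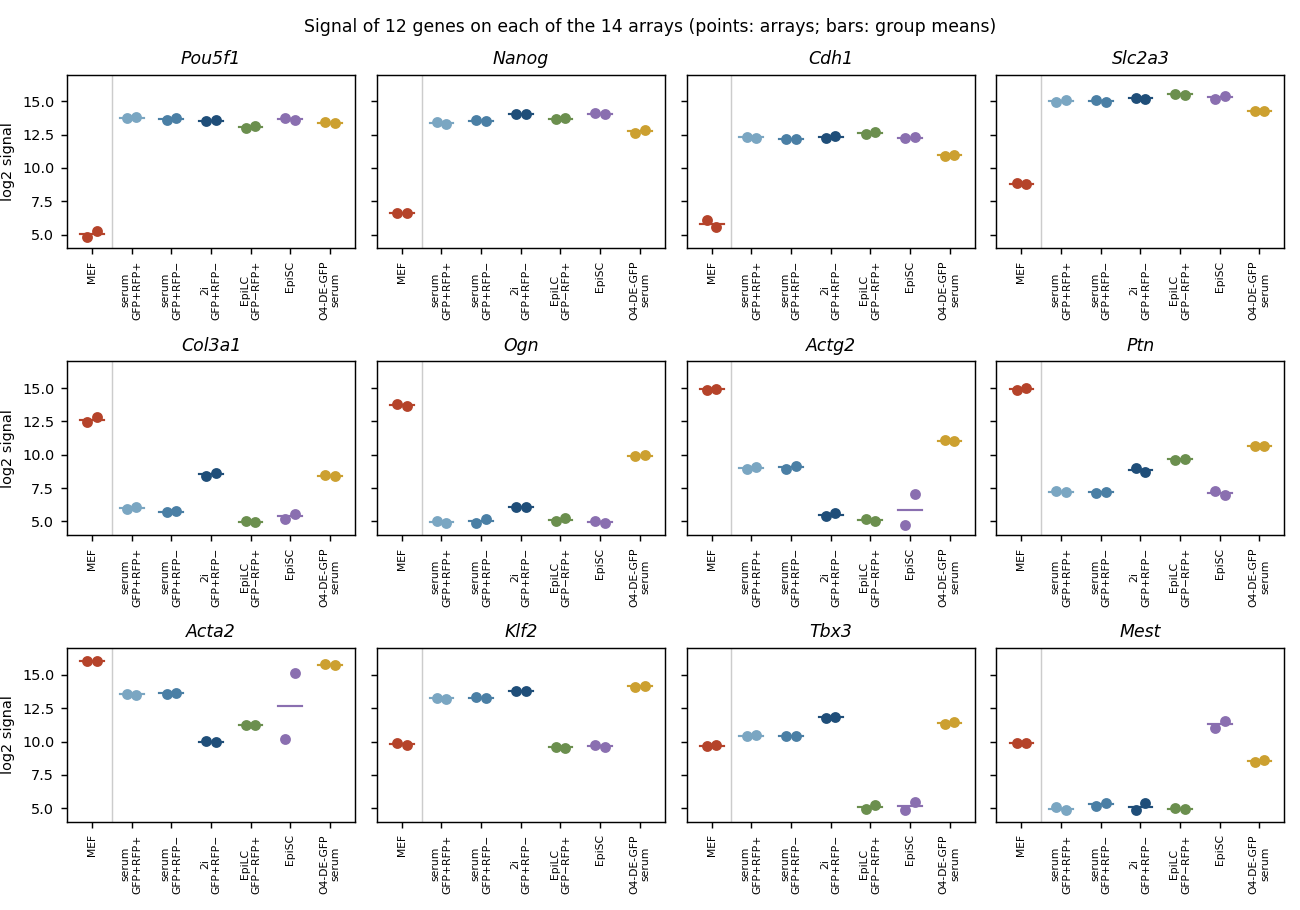
Log2 signal of 12 genes on all 14 arrays; points are arrays, short bars group means, and groups run along the horizontal axis with MEFs at the left. Pou5f1, Nanog, Cdh1 and Slc2a3 are low only in the 2 MEF arrays, Col3a1, Ogn, Actg2 and Ptn are highest there, and the pluripotent groups spread over the MEF level for Klf2, Tbx3 and Mest.

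Genes of the naive state were mostly lower in MEFs, but several of them were also low in primed cells. Of 15 members 13 were tested, 11 were lower and 2 higher, the median difference was -3.29, and MEF arrays lay below all others for 6. The group-block fit called 3 lower and 0 higher. In MEFs 8 of the 13 were undetected on both arrays, so the filter largely set their direction. Esrrb, an orphan nuclear receptor that sustains self-renewal, had 5.10 and 5.01 in MEFs, against 15.32 and 15.25 in 2i ESCs, 9.46 and 9.25 in EpiLCs and 11.32 and 8.16 in EpiSCs. Fibroblasts were below every pluripotent array, at least 140.2-fold below their mean (adjusted p = 2.60e-07). Dppa3, a maternal factor that limits DNA methylation, had 4.70 and 4.78 in MEFs, against 12.34 and 12.36 in 2i ESCs but 5.10 and 5.01 in EpiSCs. The MEF and EpiSC arrays were close for Dppa3, and both near background. Gbx2, a homeobox gene of the LIF response, was at least 38.2-fold lower in MEFs, with 5.20 and 5.08 there and 7.39 to 13.02 in pluripotent cells. Fbxo15, an Oct4 target once used to select reprogrammed cells, was at least 44.5-fold lower.
The Krüppel-like factors and Tbx3 were clearly transcribed in the fibroblasts. Klf2 had 9.89 and 9.73 in MEFs, against 13.79 and 13.79 in 2i ESCs, 9.61 and 9.53 in EpiLCs and 9.75 and 9.60 in EpiSCs. Fibroblasts thus lay below the ESC groups for Klf2 and at the level of the primed groups, and the difference from the mean of the 6 was -2.48 ± 0.068 (SE, adjusted p = 4.45e-10). Klf4, a reprogramming factor also expressed in fibroblasts, had 11.01 and 11.01 in MEFs, against 11.33 and 11.33 in serum GFP+RFP+ ESCs, 12.22 and 12.34 in 2i ESCs, 9.55 and 9.59 in EpiLCs and 7.60 and 8.51 in EpiSCs. Its mean difference was 0.47 ± 0.17 (SE, adjusted p = 0.0248), and it was not called without MEF replicate 1 or without MEF replicate 2 (adjusted p = 0.107 and 0.108). Without the EpiSC and O4-DE-GFP groups Klf4 was lower in MEFs, by -0.13 (adjusted p = 0.0387). Tbx3, a T-box factor of naive ESCs and of embryonic limb mesenchyme, had 9.65 and 9.76 in MEFs, against 11.81 and 11.84 in 2i ESCs, 10.38 and 10.46 in serum GFP+RFP+ ESCs, 4.95 and 5.22 in EpiLCs and 4.85 and 5.47 in EpiSCs. The MEF level stood between the ESC groups, all higher, and the primed groups, both lower, and the mean difference of 0.65 ± 0.13 (SE, adjusted p = 0.00114) averaged over those opposite differences. It changed sign without the EpiLC group (-0.14, adjusted p = 0.363) and without the EpiSC group (-0.12, adjusted p = 0.163). Of the 12 pluripotent arrays, detection was found for Tbx3 on 10. Not called in the group-block fit were Klf2, Klf4 and Tbx3 (adjusted p = 0.196 to 0.843).
Genes of the post-implantation epiblast were lower in MEFs for 10 of 11 tested (14 members), with a median of -1.97, and the group-block fit called 3. Since 9 of the 11 were undetected on both MEF arrays, the filter largely set their direction. Otx2, a homeobox factor that drives the exit from naive pluripotency, had 5.20 and 5.01 in MEFs, against a lowest of 8.85, a median of 10.39 and a highest of 13.27 in pluripotent cells, at least 18.7-fold lower (adjusted p = 1.02e-10). Pou3f1, an Oct factor of the primed epiblast, had 5.01 and 4.92 in MEFs, against 7.44 to 11.97 in pluripotent cells, at least 15.3-fold lower. Fgf5, the usual marker of the primed state, had 5.08 and 4.99 in MEFs, against 5.23 and 5.06 in 2i ESCs, 11.37 and 11.38 in EpiLCs and 11.55 and 11.16 in EpiSCs. Of the groups given here, Fgf5 was high in the primed ones, near background in 2i ESCs and undetected in MEFs. The serum ESC groups are not among those given. Without the EpiSC and O4-DE-GFP groups its difference was -2.87 (adjusted p = 1.24e-09). Foxa2, an endoderm factor, was the list's 1 gene without a call (-0.63 ± 0.27, SE; adjusted p = 0.0525), undetected in MEFs and on 10 of the 12 pluripotent arrays, and it was called lower without either EpiSC array (adjusted p = 6.46e-04 without replicate 1 and 4.22e-05 without replicate 2).
Most genes of TGF-beta and BMP signalling were higher in MEFs. In this list, which also holds genes of the Nodal pathway, 17 of 24 tested were higher in MEFs and 5 lower, with a median of 1.41. The median was 0.74 against O4-DE-GFP serum ESCs, and 1.09 to 1.71 against the other groups. The mean level of the list was 10.10 and 10.10 on the MEF arrays and slightly higher, 10.17 and 10.20, on the O4-DE-GFP arrays. The group-block fit called 4 and 4, against 11.4% higher and 13.7% lower over all genes. The 5 lower genes were Nodal, Lefty1, Lefty2, Acvr2b and Bmp4; they were picked out after their values were seen, and other genes through which Nodal or activin signals, such as Smad2, Smad3 and Tgfbr1, were not among them. Lefty2, a secreted Nodal inhibitor, had 4.92 and 4.99 in MEFs, against a lowest of 8.87, a median of 11.90 and a highest of 14.09 in pluripotent cells, at least 56.6-fold lower (adjusted p = 4.25e-08). Lefty1 had 8.53 and 8.53 in MEFs and 12.44 to 14.35 in pluripotent cells (-4.55 ± 0.064, SE). The type II receptor gene Acvr2b differed by -4.49 ± 0.092 (SE) and Nodal itself, undetected in MEFs, was at least 4.12-fold lower. Among the higher genes, the ligand gene Tgfb3 had 11.52 and 11.49 in MEFs, against 9.25 and 9.33 in O4-DE-GFP serum ESCs and no more than 5.72 on the other 10 pluripotent arrays. The difference for Tgfb3 was 5.44 ± 0.13 (SE, adjusted p = 1.87e-10), and both MEF arrays were above all others. Inhba, the activin A subunit that feeder cells release, had 13.97 and 13.83 in MEFs and 6.28 to 12.33 in pluripotent cells (4.82 ± 0.51, SE; adjusted p = 8.38e-06). The receptor gene Tgfbr2 was 15.8-fold higher (3.98 ± 0.47, SE). Detection in pluripotent cells was found for Tgfb3 on 3 of 12 arrays.
Among the DNA methylation genes Dnmt3b had the widest difference, and it could be measured on both sides. In the DNA methylation list 6 of 8 tested genes were lower in MEFs and 0 higher (median -1.31; 3 lower in the group-block fit). Dnmt3a was not among the 8. Dnmt3b, the de novo methyltransferase of the epiblast, had 7.85 and 7.82 in MEFs, against a lowest of 13.72, a median of 15.11 and a highest of 15.32 in pluripotent cells. That was 118-fold lower in MEFs (-6.88 ± 0.049, SE; adjusted p = 1.24e-13), with detection on every array. Dnmt3l, its catalytically inactive cofactor, had 7.37 and 7.22 in MEFs, against 15.59 and 15.54 in serum GFP+RFP+ ESCs, 8.18 and 8.04 in EpiLCs and 11.03 and 7.14 in EpiSCs. EpiSC replicate 2 lay at the fibroblast level for Dnmt3l and replicate 1 well above it. Against single groups Dnmt3l was not called for EpiLCs (-0.82, adjusted p = 0.423) or EpiSCs (-1.79, adjusted p = 0.0930). The fit shares 1 estimate of spread per gene over all groups. For Dnmt3l the standard deviation was 2.75 in the EpiSC pair, against 0.11 in MEFs and 0.099 in EpiLCs. Both EpiLC arrays lay above both MEF arrays, so the missing call against EpiLCs does not show equal levels. The maintenance genes Dnmt1 (-1.73 ± 0.07, SE) and Uhrf1 (-2.82 ± 0.066, SE) were lower in MEFs by less, with 11.26 and 11.20 for Uhrf1 in MEFs and 13.27 to 14.38 in pluripotent cells. Of the germline genes 11 of 15 tested were lower and 1 higher (median -1.21), against 44.1% lower over all genes. In this list 11 of the 15 were undetected on both MEF arrays and passed the filter through pluripotent groups alone. That largely set their direction, so the count is a description. The group-block fit called 1 of them lower, against 13.7% lower over all genes. Tdrd12, a piRNA-pathway protein, had 5.80 and 6.02 in MEFs, against 7.13 to 12.37 in pluripotent cells, at least 23.2-fold lower. Tex19.1, a transposon-control gene, was at least 13.8-fold lower, and Dnd1, an RNA-binding protein of germ cells, 13-fold. The group-block fit did not call Dnmt3l, Tdrd12 and Tex19.1 (adjusted p = 0.0774 to 0.271).
Epithelial genes were lower in MEFs, and most could not be detected there. Of 20 members 18 were tested, 17 were lower in MEFs and 0 higher, 11 were undetected on both MEF arrays, and the median difference was -2.71. The group-block fit called 10. The direction of the 11 undetected genes was largely set by the filter. Cdh1 (E-cadherin), the adhesion molecule that seals epithelial colonies, had 6.07 and 5.59 in MEFs, against a lowest of 10.90, a median of 12.24 and a highest of 12.66 in pluripotent cells, at least 60.7-fold lower (adjusted p = 2.46e-11). Cldn6, a tight-junction claudin of embryonic epithelium, had 5.20 and 5.11 in MEFs, against a lowest of 10.98, a median of 12.12 and a highest of 14.06 in pluripotent cells, at least 72.1-fold lower. Esrp1, the splicing factor that sets epithelial exons, had 4.89 and 5.06 in MEFs, against 10.27 to 13.78 in pluripotent cells, at least 48-fold lower (adjusted p = 1.37e-11). For all 3 genes the MEF arrays were at background and every pluripotent array was high. Grhl2, an epithelial transcription factor, was more uneven, with 4.67 and 4.75 in MEFs, against 5.64 and 5.37 in 2i ESCs and up to 10.57 elsewhere. Krt8, a keratin of simple epithelia, was detected in MEFs at 7.27 and 6.73, against 8.02 to 14.28 in pluripotent cells (-2.94 ± 0.23, SE; adjusted p = 8.51e-07). Without a call in the group-block fit was Krt8 (adjusted p = 0.251).
Transcription factors of mesenchyme were higher in MEFs. Where a gene was detected on only some of the 12 pluripotent arrays, their number is given, since its fitted difference rests in part on signals not above background. A gene detected on none of them was tested only through MEFs, which set its direction. Of 28 members only 13 passed detection, 10 of them were higher in MEFs and 0 lower, with a median of 2.89, and the group-block fit called 3. Twist2, a basic helix-loop-helix factor of dermal mesenchyme, had 13.22 and 13.37 in MEFs, against 5.85 and 6.12 in 2i ESCs, 6.90 and 6.70 in EpiLCs, 5.80 and 8.90 in EpiSCs and 9.77 and 9.76 in O4-DE-GFP serum ESCs. Both MEF arrays exceeded all 12 others, and the difference was 5.24 ± 0.55 (SE, 37.8-fold, adjusted p = 7.72e-06). Prrx1, a homeobox factor of limb mesenchyme, had 10.84 and 10.70 in MEFs, against a lowest of 5.24, a median of 7.09 and a highest of 9.14 in pluripotent cells (3.67 ± 0.32, SE; adjusted p = 1.84e-06). The E-cadherin repressor Zeb2 had 10.83 and 10.91 in MEFs, against 5.85 to 9.20 in pluripotent cells (3.29 ± 0.29, SE). Zeb1 (2.90), Twist1 (2.89), Runx1 (3.04) and Snai1 (2.10) were higher too. Foxc2, a forkhead factor of mesoderm, was detected on no pluripotent array, and with 8.06 and 8.14 in MEFs it was at least 5.07-fold higher there. Above background were Twist2 on 11, Prrx1 on 11 and Runx1 on 4 of the 12 pluripotent arrays. The group-block fit gave no call for Twist2, Prrx1, Zeb2, Zeb1, Twist1 and Snai1 (adjusted p = 0.0523 to 0.28).
Surface and cytoskeletal markers of mesenchyme were higher in MEFs for 17 of 20 tested genes and lower for 1, with a median of 4.20, and the MEF arrays lay above all pluripotent arrays for all 17 of the higher ones. The group-block fit called 8. Fap, the fibroblast activation protease, had 10.08 and 10.11 in MEFs and was not detected in pluripotent cells, where its signal ran over 4.80 to 5.41. It was at least 20.3-fold higher in MEFs and lay at background in the EpiSC and O4-DE-GFP arrays as well. Thy1, the glycoprotein CD90, had 15.59 and 15.57 in MEFs, against a lowest of 9.18, a median of 11.09 and a highest of 13.39 in pluripotent cells, 22.5-fold higher (adjusted p = 6.88e-11). The PDGF receptor genes Pdgfra (4.95 ± 0.41, SE) and Pdgfrb (5.31 ± 0.25, SE) were higher, with 12.37 and 12.47 for Pdgfra in MEFs and 5.01 to 9.35 in pluripotent cells. Vim, the intermediate filament vimentin, had 14.42 and 14.20 in MEFs, against 9.30 to 13.10 in pluripotent cells, 7.47-fold higher in MEFs (adjusted p = 1.73e-05). S100a4, also called fibroblast-specific protein, differed by 5.02 ± 0.43 (SE). Nt5e (CD73), a standard marker of mesenchymal stromal cells, went the other way, with 7.11 and 7.38 in MEFs, against 8.23 to 11.40 in pluripotent cells (-2.52 ± 0.21, SE; adjusted p = 1.38e-06). Pluripotent signals were above background for Pdgfra on 10, Pdgfrb on 6 and S100a4 on 8 of 12 arrays. Calls of Pdgfra, Vim and Nt5e did not hold in the group-block fit (adjusted p = 0.0612 to 0.167).
Fibrillar collagens gave some of the widest separations. Of 18 tested chains (23 members) 14 were higher in MEFs and 2 lower, with a median of 4.35, and both MEF arrays were above all pluripotent arrays for 13. In the group-block fit 8 were higher and 1 lower. Col3a1, the type III chain of soft connective tissue, had 12.45 and 12.81 in MEFs, against a lowest of 4.93, a median of 5.85 and a highest of 8.65 in pluripotent cells, 69.5-fold higher in MEFs (6.12 ± 0.12, SE; adjusted p = 6.82e-11). Col1a2, a type I chain, had 11.63 and 12.15 in MEFs, against 5.17 to 7.25 in pluripotent cells (5.76 ± 0.16, SE; 54.1-fold). Its partner chain Col1a1 had 15.67 and 15.67 in MEFs, against 13.64 and 13.41 in O4-DE-GFP serum ESCs, 10.60 and 10.57 in 2i ESCs, 6.04 and 9.57 in EpiSCs and 6.07 and 6.01 in EpiLCs. The MEF arrays were the highest for Col1a1 and the O4-DE-GFP arrays the next, with a mean 2.14 below them (adjusted p = 0.0345). The 2 EpiSC arrays differed more from each other than from several other groups. Col5a2, which nucleates fibrils, was detected on none of the pluripotent arrays and was at least 12.8-fold higher in MEFs, with 9.37 and 9.50. Col18a1, a basement-membrane collagen, was 1 of the 2 lower chains, with 11.77 and 11.78 in MEFs, against 12.72 to 14.12 in pluripotent cells (-1.92 ± 0.15, SE; adjusted p = 6.56e-07). The other, the cartilage collagen Col2a1, differed by -1.18 ± 0.33 (SE, adjusted p = 0.00665) and was not called without MEF replicate 2 (adjusted p = 0.0894). Detected signals in pluripotent cells were found for Col3a1 on 8 and Col1a2 on 8 of 12 arrays. Lost in the group-block fit were the calls of Col1a1 and Col2a1 (adjusted p = 0.144 to 0.599).

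**Figure D3:**
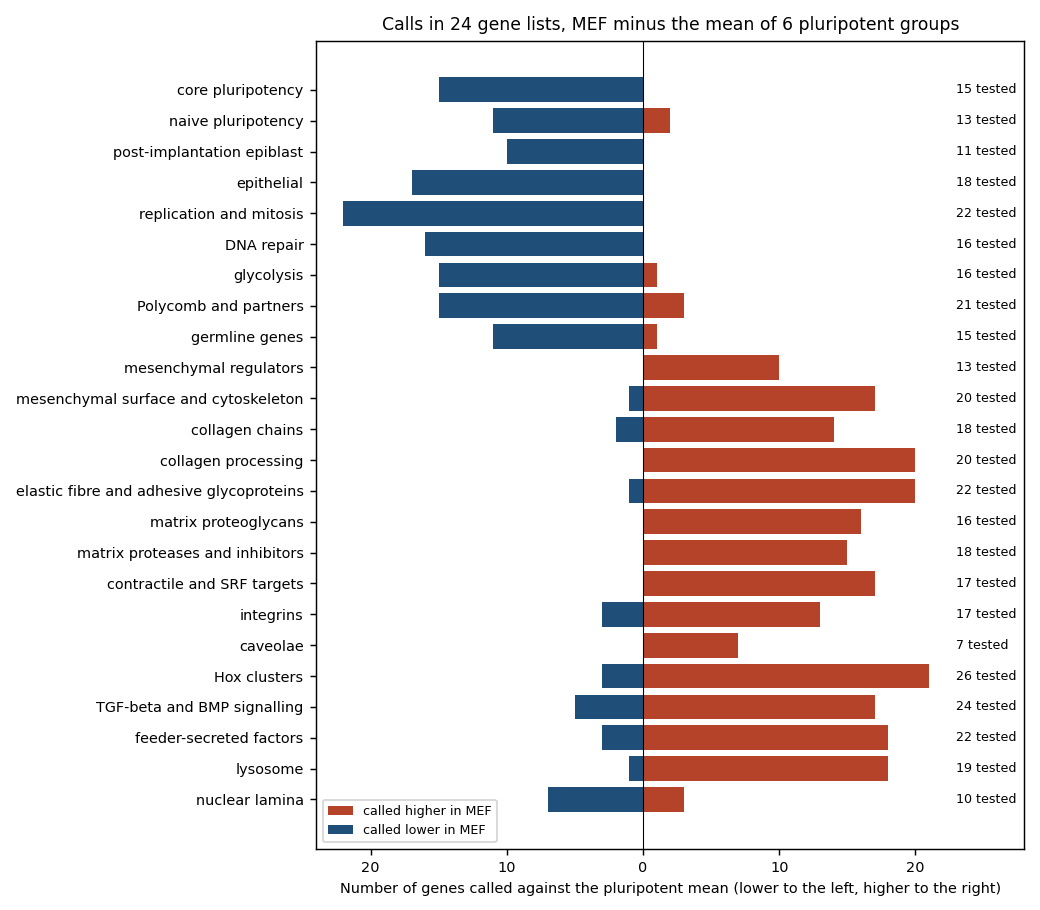
Number of genes called higher in MEFs (red, to the right) and called lower (blue, to the left) against the pluripotent mean in 24 of the 43 lists, with the number tested at the right. The pluripotency, epithelial, replication and repair lists fall almost wholly on the lower side and the matrix, contractile, caveolar and lysosomal lists on the higher side.

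The enzymes that make and fold collagen were higher throughout, with 20 of 20 tested genes (12 in the group-block fit) and a median of 2.18. Lox, the copper enzyme that cross-links collagen and elastin, had 15.71 and 15.52 in MEFs, against 14.72 and 14.71 in O4-DE-GFP serum ESCs, 10.59 and 10.61 in serum GFP+RFP+ ESCs, 6.55 and 10.26 in EpiSCs and 6.44 and 6.26 in EpiLCs. Its difference was 5.50 ± 0.65 (SE, adjusted p = 2.08e-05). Loxl2, a related oxidase, had 11.93 and 12.16 in MEFs, against a lowest of 6.44, a median of 6.72 and a highest of 8.93 in pluripotent cells (4.77 ± 0.18, SE; adjusted p = 3.44e-09). Serpinh1, the collagen chaperone Hsp47, had 12.04 and 11.85 in MEFs, against 8.18 to 10.22 in pluripotent cells, 8.43-fold higher. Smaller differences were found for housekeeping members such as P4hb, the disulfide isomerase subunit of prolyl hydroxylase (0.91 ± 0.048, SE). Elastic-fibre and adhesive glycoproteins were higher for 20 of 22 tested genes and lower for 1, with a median of 3.02 (10 and 1 in the group-block fit). Tnc, the wound-matrix protein tenascin C, had 15.39 and 15.46 in MEFs, against a lowest of 6.38, a median of 11.23 and a highest of 12.96 in pluripotent cells (5.03 ± 0.77, SE; adjusted p = 1.45e-04). Ccn5, a secreted CCN protein, had 10.34 and 10.63 in MEFs, against 4.79 to 5.74 in pluripotent cells, where 10 of the 12 arrays were not above background, so the fitted 36.7-fold (adjusted p = 1.28e-09) is mostly against background. Sparc, a collagen-binding glycoprotein, was already high in pluripotent cells, with 15.20 and 15.14 in MEFs and 11.14 to 14.11 in pluripotent cells (3.08 ± 0.24, SE). Nid2, which links laminin to collagen IV in basement membranes, was the lower gene, with 10.50 and 10.30 in MEFs and 11.89 to 13.20 in pluripotent cells (-2.02 ± 0.079, SE; adjusted p = 4.64e-09). In this set Lox, Tnc and Sparc had no call in the group-block fit (adjusted p = 0.0578 to 0.288).
All 16 matrix proteoglycan genes were called higher in MEFs, with a median of 2.34, yet only 11 of them had both MEF arrays above all others, and the group-block fit called 5. Ogn, the small leucine-rich proteoglycan osteoglycin, had 13.81 and 13.69 in MEFs, against 9.88 and 9.99 in O4-DE-GFP serum ESCs and at most 6.09 on the other 10 pluripotent arrays. The MEF arrays stood clear of all others, and the difference of 7.73 ± 0.084 (SE) was 213-fold (adjusted p = 1.84e-12). Mgp, a calcification inhibitor of cartilage and vessels, reversed that order, with 10.26 and 10.07 in MEFs, against 14.98 and 15.07 in O4-DE-GFP serum ESCs, 5.34 and 7.06 in EpiSCs and 4.86 and 5.10 in EpiLCs. Lum, which spaces collagen fibrils, had 8.33 and 8.25 in MEFs, against 11.07 and 10.97 in O4-DE-GFP serum ESCs, so it too was higher in that ESC group than in the fibroblasts. Dcn, decorin, had 13.30 and 13.30 in MEFs and 13.44 and 13.32 in O4-DE-GFP serum ESCs, levels that overlapped, against 7.59 and 11.13 in EpiSCs. For all 3 genes the O4-DE-GFP arrays were at or above the MEF level, and the call rests on the other groups. Without the EpiSC and O4-DE-GFP groups the list had 16 higher genes and a median of 2.83. Pluripotent detection was found for Ogn on 4 of 12 arrays. Calls were lost in the group-block fit for Mgp, Lum and Dcn (adjusted p = 0.445 to 0.56).
Matrix proteases and their inhibitors were higher in MEFs for 15 of 18 tested genes, with a median of 2.43 and 6 calls in the group-block fit. Adamts5, an aggrecanase, had 11.73 and 11.73 in MEFs, against a lowest of 5.13, a median of 5.60 and a highest of 7.84 in pluripotent cells (5.80 ± 0.20, SE; adjusted p = 2.08e-09). Ctsk, a collagen-degrading cathepsin, had 13.62 and 13.60 in MEFs, against 5.16 to 9.16 in pluripotent cells, 51.1-fold higher. Mmp14, the membrane-bound collagenase, had 14.74 and 14.84 in MEFs and 10.15 to 13.32 in pluripotent cells (3.22 ± 0.21, SE), and the inhibitor gene Timp3 13.47 and 13.57 and 7.32 to 12.30 (4.79 ± 0.14, SE). Each of these genes had both MEF arrays above the 12 others. Mmp13, an interstitial collagenase, had 10.57 and 10.93 in MEFs, against 12.48 and 12.45 in O4-DE-GFP serum ESCs, and the inhibitor gene Timp1 had 13.42 and 13.50 in MEFs, against 15.16 and 15.004 in those ESCs. Both were thus lower in MEFs than in 1 pluripotent group while being called higher against the mean (1.92 ± 0.41 for Mmp13 and 1.29 ± 0.37 for Timp1, SE). Timp1 was not called without MEF replicate 2 (adjusted p = 0.0602) or without the EpiLC group (adjusted p = 0.0555). Signals above background were found for Adamts5 on 4, Ctsk on 11 and Mmp13 on 9 of the 12 pluripotent arrays. The group-block fit did not hold the call of Mmp13 and Timp1 (adjusted p = 0.603 to 0.642).

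**Figure D4:**
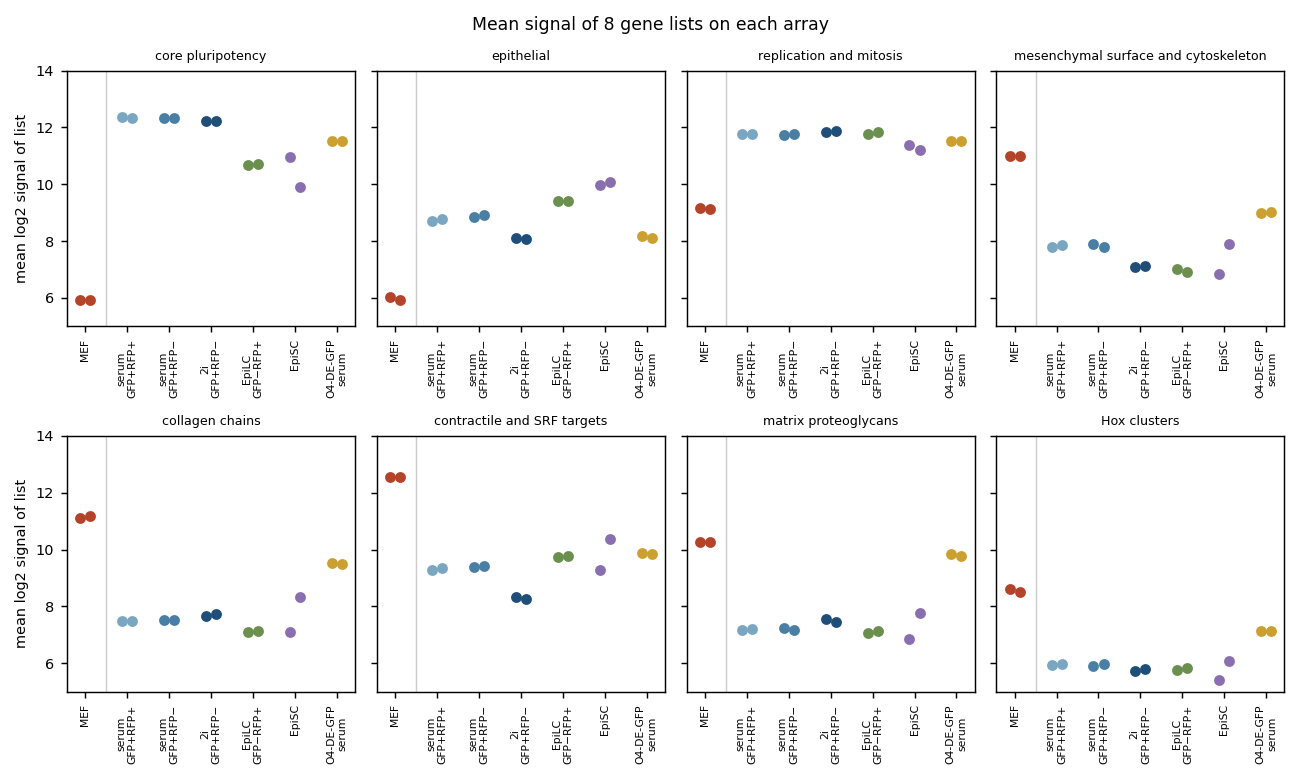
Mean log2 signal of the tested genes of 8 lists on each array, with MEFs at the left and the 6 pluripotent groups to their right; each point is 1 array. The 2 MEF arrays are lowest for core pluripotency, epithelial and replication genes and highest for the other 5 lists, and among pluripotent arrays the O4-DE-GFP serum pair is highest for surface, collagen, proteoglycan and Hox genes.

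Genes of the contractile apparatus and known targets of serum response factor (SRF), kept as 1 list that also holds the genes of SRF and of its coactivators, were higher in MEFs for all 17 tested (23 members), by a median of 3.05, and 14 of them had both MEF arrays above all pluripotent arrays. The group-block fit called 9. Actg2, the gamma smooth-muscle actin, had 14.85 and 14.96 in MEFs, against 11.10 and 11.03 in O4-DE-GFP serum ESCs, 8.93 and 9.05 in serum GFP+RFP+ ESCs, 5.42 and 5.62 in 2i ESCs and 4.72 and 7.06 in EpiSCs. It was 158-fold higher in MEFs (7.30 ± 0.42, SE; adjusted p = 7.32e-08), and no pluripotent array came near the MEF pair. Tagln, the actin-bundling protein SM22, had 12.89 and 13.06 in MEFs, against a lowest of 5.02, a median of 7.38 and a highest of 9.96 in pluripotent cells, 43.6-fold higher (adjusted p = 1.69e-07). Myh11, the smooth-muscle myosin heavy chain, had 9.48 and 9.58 in MEFs and was at background in every pluripotent array (4.59 to 5.06), at least 13.7-fold higher in MEFs. Lmod1, a smooth-muscle actin nucleator, was at least 22.6-fold higher. Acta2, the stress-fibre actin of myofibroblasts, had 16.05 and 16.04 in MEFs, against 15.80 and 15.75 in O4-DE-GFP serum ESCs, 10.19 and 15.13 in EpiSCs and 10.05 and 9.95 in 2i ESCs. Its MEF level was the highest but only slightly above the O4-DE-GFP arrays and EpiSC replicate 2 (3.24 ± 0.87, SE; adjusted p = 0.00567). In pluripotent cells signals were above background for Actg2 on 7 and Tagln on 10 of 12 arrays. Of the genes named, Acta2 lost the call in the group-block fit (adjusted p = 0.557).
SRF binds the CArG box, a motif of 10 bases whose pattern is the same on both strands. RefSeq promoter windows of 300 bases (250 before to 50 after each start, build GRCm38.p6) were searched for it. At least 1 box was found in 535 of 32851 windows (1.63%), in 140 of 8479 tested genes with a window (1.65%), and in 5 of the 20 genes of the contractile and SRF target list with a window (25%). Since that list was drawn up with known SRF targets in it, its share is no independent evidence about the box. The 4 of those 5 genes that were measured are shown in order of their difference, in lower case with the CArG box in capitals; they are shown as the promoters of this list that hold the box, and a match describes these letters and shows no binding.
Acta1, chr8:123894726-123895025, minus strand, box starting 73 bases before the start: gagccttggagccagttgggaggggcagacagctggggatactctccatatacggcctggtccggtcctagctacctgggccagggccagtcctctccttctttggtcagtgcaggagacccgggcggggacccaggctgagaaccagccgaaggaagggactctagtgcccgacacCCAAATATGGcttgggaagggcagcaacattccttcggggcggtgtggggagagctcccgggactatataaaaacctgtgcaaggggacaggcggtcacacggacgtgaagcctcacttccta
Cnn2, chr10:79988350-79988649, plus strand, box 56 bases before the start: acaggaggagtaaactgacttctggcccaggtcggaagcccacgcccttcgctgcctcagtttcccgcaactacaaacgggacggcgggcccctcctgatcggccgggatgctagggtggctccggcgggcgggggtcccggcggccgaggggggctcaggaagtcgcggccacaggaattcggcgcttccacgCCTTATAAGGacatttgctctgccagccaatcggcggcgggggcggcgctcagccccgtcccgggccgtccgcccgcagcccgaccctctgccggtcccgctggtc
Vcl, chr14:20929148-20929447, plus strand, box 227 bases before the start: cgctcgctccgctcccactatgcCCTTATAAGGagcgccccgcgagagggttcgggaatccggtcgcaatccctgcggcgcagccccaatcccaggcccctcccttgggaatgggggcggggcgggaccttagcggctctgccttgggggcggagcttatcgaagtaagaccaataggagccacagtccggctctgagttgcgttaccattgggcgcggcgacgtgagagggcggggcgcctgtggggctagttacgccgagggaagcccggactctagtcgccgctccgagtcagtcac
Srf, chr17:46556113-46556412, minus strand, boxes 82 and 62 bases before the start: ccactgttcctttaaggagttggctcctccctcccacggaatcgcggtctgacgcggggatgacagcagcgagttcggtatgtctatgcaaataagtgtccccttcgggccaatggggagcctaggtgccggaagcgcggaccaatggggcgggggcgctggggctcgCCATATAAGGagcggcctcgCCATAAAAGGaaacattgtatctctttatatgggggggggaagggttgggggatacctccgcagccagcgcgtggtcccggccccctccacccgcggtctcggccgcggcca
Acta1, the sarcomeric alpha actin, had 13.09 and 13.06 in MEFs, against 8.68 and 13.86 in EpiSCs, 9.70 and 9.51 in EpiLCs, 9.51 and 9.63 in serum GFP+RFP+ ESCs, 6.26 and 5.55 in 2i ESCs and 5.92 and 5.47 in O4-DE-GFP serum ESCs. EpiSC replicate 2 exceeded both MEF arrays for Acta1, whereas the O4-DE-GFP arrays, high for Acta2, were near background (4.47 ± 0.92, SE; adjusted p = 0.00116). Cnn2, the non-muscle calponin, had 11.16 and 11.25 in MEFs, against a lowest of 6.78, a median of 8.80 and a highest of 10.14 in pluripotent cells (2.38 ± 0.13, SE; adjusted p = 6.35e-08). Vcl, the focal-adhesion linker vinculin, had 14.73 and 14.89 in MEFs, against 11.70 to 13.78 in pluripotent cells (2.32 ± 0.11, SE). For Cnn2 and Vcl both MEF arrays exceeded all 12 others. Srf itself, whose promoter window holds 2 boxes, had 11.76 and 11.71 in MEFs, against 9.81 to 12.16 in pluripotent cells, overlapping ranges with a difference of 0.99 ± 0.13 (SE, adjusted p = 3.37e-05). Among pluripotent arrays a detected signal was found for Acta1 on 10 of 12. The group-block fit had no call for Acta1, Cnn2 and Srf (adjusted p = 0.0503 to 0.438).
Integrins and focal-adhesion genes were higher for 13 of 17 tested and lower for 3, with a median of 1.82 (6 higher and 0 lower in the group-block fit). Itga11, the collagen-binding integrin of fibroblasts, had 14.59 and 14.64 in MEFs, against 13.17 and 13.21 in O4-DE-GFP serum ESCs and 7.80 and 8.10 in 2i ESCs. It was 106-fold above the pluripotent mean (6.72 ± 0.35, SE; adjusted p = 3.62e-08). The O4-DE-GFP mean was 1.43 below that of the MEF pair (adjusted p = 0.0164). Itgav, a subunit of the vitronectin receptor, had 10.56 and 10.52 in MEFs, against 5.997 to 8.45 in pluripotent cells, 8.36-fold higher. The common beta subunit gene Itgb1 had 11.27 and 11.29 in MEFs and 7.32 to 9.57 in pluripotent cells (2.74 ± 0.18, SE). Itgb4, the hemidesmosome subunit of epithelia, was lower (-0.97 ± 0.16, SE; adjusted p = 2.29e-04), and Itgb7, a leukocyte integrin subunit undetected in MEFs, was at least 3.01-fold lower. All 7 caveolar genes were higher, each with both MEF arrays above all others (4 called in the group-block fit; median 2.36). Cavin2, a coat protein of caveolae, had 14.11 and 14.02 in MEFs, against a lowest of 4.79, a median of 7.45 and a highest of 11.25 in pluripotent cells, 98.2-fold higher (adjusted p = 7.67e-08). Cav1, the scaffold of these membrane pits, had 14.61 and 14.59 in MEFs and 6.31 to 10.73 in pluripotent cells (5.62 ± 0.62, SE). Pluripotent arrays gave a detected signal for Itga11 on 9 and Cavin2 on 8 of 12. Calls in the group-block fit were missing for Itgb4, Itgb7 and Cav1 (adjusted p = 0.132 to 0.336).
Genes of the nuclear lamina changed in both directions. Lmna, encoding the A-type lamins that stiffen nuclei of differentiated cells, had 14.27 and 14.28 in MEFs, against 10.13 to 12.89 in pluripotent cells (2.80 ± 0.41, SE; adjusted p = 9.76e-05). Lmnb1, a B-type lamin, had 9.68 and 10.24 in MEFs, against 12.61 to 13.80 in pluripotent cells (-3.32 ± 0.19, SE; adjusted p = 8.43e-08). The lamin B receptor gene Lbr had 11.57 and 11.50 in MEFs and 13.35 to 14.28 in pluripotent cells (-2.34 ± 0.052, SE), and Sun2, a linker to the cytoskeleton, was higher (2.45 ± 0.078, SE). In all, 7 of 10 tested lamina genes were lower and 3 higher (4 and 1 in the group-block fit). Lysosomal genes were higher for 18 of 19, with a median of 1.87 and 10 calls in the group-block fit. Lipa, the acid lipase, had 11.55 and 11.81 in MEFs, against a lowest of 7.23, a median of 8.15 and a highest of 9.74 in pluripotent cells (3.44 ± 0.14, SE). Ctsb, a cysteine protease of lysosomes, had 15.66 and 15.78 in MEFs and 12.81 to 14.23 in pluripotent cells, 5.43-fold higher, and the aspartic protease gene Ctsd had 8.76 and 8.97 and 5.92 to 6.90 (2.31 ± 0.11, SE). Each MEF pair lay above all 12 pluripotent arrays for these 3 genes. Tfeb, a transcription factor of lysosomal genes, was the 1 lower gene (-0.27 ± 0.11, SE; adjusted p = 0.0393), at signals not above background in MEFs and on 10 of the 12 pluripotent arrays, and lost that call when any of 8 single arrays was left out, both MEF arrays among them (adjusted p up to 0.231). In the group-block fit Lmna and Tfeb were not called (adjusted p = 0.248 to 0.722).
Factors that feeder layers are known to secrete were higher for 18 of 22 tested genes and lower for 3 (median 1.74). The median was only 0.33 against O4-DE-GFP serum ESCs, and 1.32 to 2.70 against the other groups. The list averaged 9.85 and 9.90 on the MEF arrays and 9.50 and 9.53 on the O4-DE-GFP arrays. The group-block fit called only 2 higher and 1 lower, against 11.4% higher and 13.7% lower over all genes. Ptn, the heparin-binding growth factor pleiotrophin, had 14.86 and 14.99 in MEFs, against a lowest of 6.99, a median of 7.98 and a highest of 10.64 in pluripotent cells, 89.3-fold higher (6.48 ± 0.086, SE; adjusted p = 6.85e-12). Wnt5a, a non-canonical Wnt, had 13.30 and 13.30 in MEFs, against 5.22 to 11.20 in pluripotent cells (5.28 ± 0.32, SE). Csf1, the macrophage growth factor, differed by 4.63 ± 0.57 (SE). Lif, the cytokine for which feeders were first used, went the other way at low signal, with 5.94 and 6.06 in MEFs, against 6.23 to 8.49 in pluripotent cells (-1.03 ± 0.13, SE; adjusted p = 3.85e-05). Mdk, midkine, the relative of Ptn, also went the other way, with 11.45 and 11.38 in MEFs, against 13.26 to 15.55 in pluripotent cells (-2.99 ± 0.054, SE; adjusted p = 3.23e-11). The LIF pathway's receiving side was mixed: the oncostatin M receptor gene Osmr was higher (3.76 ± 0.21, SE), the shared subunit gene Il6st too (1.72 ± 0.098, SE), the LIF receptor gene Lifr, undetected in MEFs, at least 2.54-fold lower, and the STAT3 feedback target Socs3 lower (9.13 and 8.91 in MEFs, 10.18 to 12.87 in pluripotent cells; -2.71 ± 0.068, SE). On the pluripotent side detection was found for Wnt5a on 10, Csf1 on 9 and Osmr on 11 of 12 arrays. Without calls in the group-block fit were Csf1, Lif, Osmr and Lifr (adjusted p = 0.064 to 0.312).
Hox genes, which mark position along the body axis, were mostly higher in MEFs. Of 39 members 26 were tested, 21 were higher in MEFs and 3 lower, with a median of 2.78, and the group-block fit called 13 higher. Hoxc6 had 14.06 and 14.12 in MEFs, against 10.65 and 10.78 in O4-DE-GFP serum ESCs, 6.23 and 9.52 in EpiSCs and 7.44 and 7.50 in 2i ESCs. Its difference was 5.86 ± 0.58 (SE, adjusted p = 5.10e-06), and every pluripotent array was below the MEF pair. Hoxc9 had 11.59 and 11.52 in MEFs, against a lowest of 4.95, a median of 5.98 and a highest of 7.71 in pluripotent cells (5.47 ± 0.29, SE), and Hoxb4 11.07 and 11.31 in MEFs, against 5.05 to 7.60 in pluripotent cells (5.20 ± 0.34, SE). Hoxd4 was detected on no pluripotent array, and with 9.07 and 9.03 in MEFs it was at least 9.83-fold higher. It passed the detection filter only through MEFs, so its direction was set in advance. Hoxa5 had 9.81 and 9.85 in MEFs, against 10.19 and 10.21 in O4-DE-GFP serum ESCs and 4.63 to 6.80 on the other 10 pluripotent arrays. For Hoxa5 the O4-DE-GFP arrays were thus slightly above the fibroblasts, unlike Hoxd4, which was at background in them. That difference for Hoxa5 was not called (-0.37, adjusted p = 0.271). The 3 lower genes were Hoxd11, Hoxc8 and Hoxd13, with differences of -0.66, -0.62 and -0.31; all 3 were undetected in MEFs, and on 3 (Hoxd11) or 8 (Hoxc8 and Hoxd13) of the 12 pluripotent arrays, so these sizes are between signals at or near background. Hoxc8 was not called without MEF replicate 1 or 2 (adjusted p = 0.0549 and 0.0938), nor Hoxd13 without MEF replicate 1 (adjusted p = 0.131). Among the 12 pluripotent arrays signals were above background for Hoxc9 on 8 and Hoxb4 on 6. The group-block fit left without a call Hoxc6, Hoxa5, Hoxd11, Hoxc8 and Hoxd13 (adjusted p = 0.0954 to 0.64).
Imprinted genes, expressed from 1 parental copy, were divided. Of 18 tested 10 were higher in MEFs and 4 lower, with a median of 1.04 (3 and 2 in the group-block fit). Over all genes 39.8% were higher and 44.1% lower (11.4% and 13.7% in the group-block fit). Dlk1, a paternally expressed Notch-family ligand, had 10.80 and 10.64 in MEFs, against 4.97 to 8.10 in pluripotent cells (4.13 ± 0.13, SE; adjusted p = 1.00e-09). Igf2r, the maternally expressed IGF2 receptor, was higher (2.48 ± 0.078, SE). Phlda2, a maternally expressed growth restrainer of placenta, had 5.91 and 5.65 in MEFs, where it was undetected, against a lowest of 9.32, a median of 12.04 and a highest of 13.22 in pluripotent cells, at least 52.2-fold lower (adjusted p = 1.01e-08). Mest, a paternally expressed mesodermal hydrolase, had 9.89 and 9.89 in MEFs, against 11.03 and 11.58 in EpiSCs, 8.46 and 8.58 in O4-DE-GFP serum ESCs and at most 5.41 on the other 8 arrays. Fibroblasts were thus second to EpiSCs for Mest. Genes of the Y chromosome separated groups as well. Eif2s3y had 12.13 and 12.16 in MEFs, against 11.69 and 12.03 in EpiSCs, 7.43 and 7.49 in O4-DE-GFP serum ESCs, 6.29 and 6.24 in serum GFP+RFP+ ESCs and 4.88 and 4.68 in EpiLCs. The MEF and EpiSC arrays were high and the EpiLC arrays at background, so Y-linked genes differed among the pluripotent groups as well as between them and MEFs. In the pluripotent groups detection was found for Dlk1 on 9 of 12 arrays. No call was made in the group-block fit for Mest (adjusted p = 0.205).
Most Polycomb genes were lower in MEFs, and both lists of chromatin regulators held genes of either direction. Of Polycomb genes and partners 15 of 21 tested were lower in MEFs and 3 higher (median -1.08; 10 and 2 in the group-block fit). Cbx7, the chromodomain subunit of PRC1 in pluripotent cells, had 6.01 and 5.28 in MEFs, against a lowest of 10.42, a median of 11.25 and a highest of 11.97 in pluripotent cells, at least 33.5-fold lower (adjusted p = 2.50e-10). Its relative Cbx8 was higher (1.93 ± 0.18, SE). Ezh2, the H3K27 methyltransferase of PRC2, had 8.55 and 8.61 in MEFs, against 11.44 to 12.71 in pluripotent cells (-3.55 ± 0.079, SE; adjusted p = 1.20e-10). Phc1 was lower (-3.84 ± 0.062, SE) and its paralog Phc2 higher (1.69 ± 0.071, SE), and Bmi1, a PRC1 subunit that represses the Ink4a locus, had 8.56 and 8.57 in MEFs and 5.92 to 7.83 in pluripotent cells (1.67 ± 0.098, SE). Among BAF remodelling genes 10 of 17 tested were lower and 3 higher, against 44.1% lower over all genes. The group-block fit called 1 of them lower and 0 higher, against 13.7% lower over all genes. Smarcc1 (BAF155), the subunit of the ESC complex, was lower (-1.89 ± 0.056, SE), and Smarcc2 (BAF170), its counterpart in differentiated cells, higher (1.66 ± 0.23, SE), as were the ATPase gene Smarca2 (1.72 ± 0.081, SE) and Smarcd3 (2.21 ± 0.11, SE). Of splicing and RNA regulators 12 of 16 tested were lower in MEFs and 3 higher (9 and 3 in the group-block fit). The higher ones were Celf2, Mbnl1 and Mbnl2, splicing factors of differentiated cells. Mbnl1 had 13.88 and 13.92 in MEFs, against 8.81 to 11.50 in pluripotent cells (3.16 ± 0.25, SE), Celf2 differed by 3.70 ± 0.12 (SE) and Mbnl2 by 3.35 ± 0.14 (SE). Of 12 pluripotent arrays, signals were above background for Cbx8 on 5 and Smarcd3 on 6. Not held in the group-block fit were the calls of Cbx8, Smarcc2, Smarca2 and Smarcd3 (adjusted p = 0.0609 to 0.214).
Genes of DNA replication and mitosis were lower in MEFs in every case: 22 of 22 tested, by a median of -2.57, 19 with both MEF arrays below all 12 others, and 17 also in the group-block fit. Mcm5, a subunit of the replicative helicase, had 10.79 and 10.69 in MEFs, against a lowest of 13.90, a median of 14.92 and a highest of 15.06 in pluripotent cells, 16.1-fold lower (adjusted p = 1.91e-11). The licensing factor gene Cdt1 (-3.41 ± 0.06, SE) and the helicase gene Mcm2 (-3.65 ± 0.058, SE) followed. Top2a, the topoisomerase of dividing cells, had 9.82 and 9.98 in MEFs, against 12.72 to 13.27 in pluripotent cells (-2.996 ± 0.066, SE). Plk1, a mitotic kinase, was an exception in order, with 10.54 and 10.73 in MEFs, against 7.95 and 7.90 in EpiSCs and 12.15 to 13.92 on the other 10 arrays, so the EpiSC arrays were below the MEF pair. DNA repair genes were likewise lower for all 16 tested, by a median of -2.99, and 14 of them in the group-block fit. Ung, which excises uracil from DNA, had 8.26 and 8.18 in MEFs, against a lowest of 12.18, a median of 13.16 and a highest of 13.26 in pluripotent cells, 25.5-fold lower (adjusted p = 3.15e-11). Chek1, the replication checkpoint kinase, was undetected in MEFs and at least 8.04-fold lower. In the group-block fit no call was made for Plk1 (adjusted p = 0.431).
The list of G1 regulators and p53 targets holds cyclins and kinases that drive G1 as well as their inhibitors, and 13 of 20 tested were higher in MEFs and 4 lower (median 1.18). In the group-block fit 2 were higher and 0 lower, a share near the 11.4% higher over all genes. Cdkn1a (p21), the CDK inhibitor induced by p53, had 13.93 and 13.93 in MEFs, against a lowest of 10.59, a median of 12.12 and a highest of 12.74 in pluripotent cells (2.11 ± 0.059, SE; adjusted p = 4.64e-10). Cdkn2b (p15), an inhibitor of CDK4 and CDK6, had 13.79 and 13.85 in MEFs, against 6.23 to 11.29 in pluripotent cells (4.62 ± 0.55, SE; adjusted p = 2.23e-05). Cdkn2a, the locus of p16 and Arf that limits MEF lifespan in culture, had 11.41 and 11.30 in MEFs, against 8.99 and 9.26 in O4-DE-GFP serum ESCs, 8.84 and 8.50 in 2i ESCs, 5.49 and 5.97 in EpiLCs and 5.01 and 9.07 in EpiSCs. Both MEF arrays were highest for these 3 inhibitors. Ccnd2, a D-type cyclin, had 14.57 and 14.60 in MEFs, against 7.91 to 12.91 in pluripotent cells (3.96 ± 0.24, SE). Cdkn1b (p27) was lower (7.30 and 6.94 in MEFs, 6.75 to 9.85 in pluripotent cells; -1.60 ± 0.15, SE). Of these, the group-block fit did not call Cdkn2b, Cdkn2a, Ccnd2 and Cdkn1b (adjusted p = 0.0564 to 0.387).
Genes of glucose and one-carbon metabolism were mostly lower in MEFs. Glycolysis genes were lower in MEFs for 15 of 16 tested and higher for 1, with a median of -1.11 (6 lower in the group-block fit). Slc2a3 (GLUT3), the high-affinity glucose transporter of the epiblast, had 8.85 and 8.77 in MEFs, against a lowest of 14.26, a median of 15.13 and a highest of 15.54 in pluripotent cells, 75.7-fold lower (adjusted p = 1.84e-12). Pdk1, which diverts pyruvate from mitochondria, was lower (-3.36 ± 0.19, SE), and Aldoc, an aldolase undetected in MEFs, at least 13.9-fold lower. Gapdh was high on all arrays, 15.34 and 15.38 in MEFs and 15.83 to 15.94 in pluripotent cells (-0.54 ± 0.045, SE). Hk1, a hexokinase, was the 1 higher gene (1.18 ± 0.14, SE). In threonine, serine and one-carbon metabolism 9 of 11 tested genes were lower and 1 higher (median -0.90; 5 lower in the group-block fit). Gldc, the glycine decarboxylase of the glycine cleavage system, had 6.55 and 5.99 in MEFs, detected on 1 of 2 arrays, against a lowest of 14.06, a median of 14.48 and a highest of 14.78 in pluripotent cells. The difference of -8.17 ± 0.12 (SE, 288-fold, adjusted p = 1.12e-11) was among the widest of the listed genes. Shmt1, a serine hydroxymethyltransferase, was undetected in MEFs and at least 13-fold lower, and Ahcy, which clears S-adenosylhomocysteine, was lower by a difference of -2.88 ± 0.061 (SE). The calls that the group-block fit did not make were those of Gapdh and Hk1 (adjusted p = 0.0734 to 0.228).
Immune genes had no common direction. Antigen-presentation genes were higher for 5 and lower for 6 of 13 tested (1 and 1 in the group-block fit), and innate and interferon genes for 11 and 11 of 26 (5 and 0 in the group-block fit). Over all genes 39.8% were higher and 44.1% lower (11.4% and 13.7% in the group-block fit). The counts of the main fit were thus near the shares over all genes and say nothing particular about immune genes. B2m, the light chain of MHC class I, had 14.88 and 14.97 in MEFs, against 11.16 to 14.40 in pluripotent cells (2.35 ± 0.33, SE; adjusted p = 7.26e-05). Tap2, a peptide transporter subunit, was higher (1.76 ± 0.13, SE), and Psmb9, an immunoproteasome subunit undetected in MEFs, at least 2.72-fold lower. The interferon-gamma receptor gene Ifngr1 had 10.38 and 10.39 in MEFs, against a lowest of 6.86, a median of 7.63 and a highest of 8.58 in pluripotent cells (2.78 ± 0.085, SE), and Stat3 12.62 and 12.84 in MEFs, against 8.80 to 11.31 in pluripotent cells (2.07 ± 0.081, SE). The interferon-stimulated genes Usp18 (-2.30 ± 0.12, SE), Oasl2 (-1.67 ± 0.099, SE) and Bst2 (-2.29 ± 0.21, SE) were lower in MEFs. Calls absent from the group-block fit were those of B2m, Tap2, Psmb9, Usp18, Oasl2 and Bst2 (adjusted p = 0.0754 to 0.436).
Markers of other cell types that a fibroblast culture can hold were checked on the same arrays. All 6 tested macrophage and blood markers (13 members) were higher in MEFs (1 in the group-block fit), and the mean level of the list was 7.77 and 7.82 in MEFs, against 5.12 to 6.12 in pluripotent cells. Of these 6, 2 were detected on no pluripotent array. Those 2 were tested only through MEFs, which set their direction, so the count of 6 is a description. Lyz2, lysozyme of macrophages and granulocytes, had 10.88 and 11.24 in MEFs, against a lowest of 4.96, a median of 5.30 and a highest of 7.85 in pluripotent cells (5.13 ± 0.52, SE; adjusted p = 5.75e-06). Fcer1g, a signalling chain of immune receptors, was detected on no pluripotent array and was at least 7.74-fold higher in MEFs, at 8.85 and 8.56. Ptprc (CD45), Cd52 and the globin genes Hba-a1, Hbb-bt and Hbb-y were not detected on both arrays of any group, and Csf1r and Cd68 have no named probe. The MEF arrays thus carried some macrophage genes while the pan-leukocyte marker was below detection. The endothelial list averaged 6.77 and 6.86 in MEFs, against 6.08 to 7.57 in pluripotent cells, with 2 of 7 higher and 5 lower (2 and 0 in the group-block fit). Flt1, a VEGF receptor gene, had 12.43 and 12.46 in MEFs, against 5.72 to 10.10 in pluripotent cells (4.35 ± 0.089, SE), whereas the defining genes Cdh5, Erg and Tie1 were not detected. Myod1, Myf5, Acan, Adipoq, Fabp4, Pax6, Sox1, Gfap, Krt5 and Trp63 were also not detected, and the 2 tested adipocyte genes, Pparg (3.31 ± 0.084, SE) and Lpl (1.33 ± 0.051, SE), were higher in MEFs, also in the group-block fit. Upk1b, a mesothelial and urothelial membrane protein, was at least 8.97-fold higher, at 8.89 and 8.95 in MEFs. The remaining lists were mixed: of the tested markers 3 of 5 were higher and 1 lower for neural cells, 0 of 4 and 1 for skeletal muscle, 2 of 6 and 2 for cartilage and bone, 1 of 6 and 3 for keratinocytes and mesothelium, and 4 of 9 and 2 for extraembryonic endoderm. In the group-block fit the higher and lower calls were 1 and 1 for the neural list, 0 and 1 for muscle, 0 and 1 for cartilage and bone, 1 and 0 for keratinocytes and mesothelium and 2 and 0 for extraembryonic endoderm. Their mean levels were 8.54 and 8.54 in MEFs and 7.57 to 8.74 in pluripotent cells for the neural list, 6.92 and 6.96 and 6.59 to 9.44 for muscle, 6.38 and 6.54 and 6.47 to 7.69 for cartilage and bone, 6.29 and 6.12 and 5.40 to 6.61 for keratinocytes and mesothelium, and 8.22 and 8.11 and 6.29 to 8.07 for extraembryonic endoderm. The part of such cells in the differences was not tested. For pluripotent cells, detection was found for Lyz2 on 7, Flt1 on 11 and Pparg on 2 of 12 arrays. For Lyz2 the group-block fit made no call (adjusted p = 0.0897).
Beyond the lists, the genes that separated fibroblasts most evenly from every pluripotent group were taken by their smallest difference over the 6 groups, 12 on each side. On the higher side was Crispld2, a secreted cysteine-rich protein of mesenchyme, with 10.74 and 10.95 in MEFs and no detection on any pluripotent array (5.01 to 5.72), at least 34.1-fold higher. Arg1, arginase of the urea cycle and of alternatively activated macrophages, was likewise undetected in pluripotent cells and at least 19.6-fold higher in MEFs, at 9.98 and 10.11. Kcnab1, a potassium channel subunit, had 11.59 and 11.50 in MEFs, against 4.79 to 6.53 in pluripotent cells (5.83 ± 0.20, SE), and was detected on 7 of the 12, the O4-DE-GFP pair at 6.18 and 6.34. Crim1, a membrane protein that binds BMPs, had 10.47 and 10.63 in MEFs, against 4.70 to 5.88 in pluripotent cells, where only 1 array was above background. Its fitted difference of 5.45 ± 0.12 (SE) is therefore mostly against background. On the lower side, Trh, the precursor of thyrotropin-releasing hormone, had 5.005 and 5.02 in MEFs, against a lowest of 12.93, a median of 15.06 and a highest of 15.49 in pluripotent cells, at least 394-fold lower (adjusted p = 3.89e-13). Bex4 (5.43 and 5.38 in MEFs, 13.31 to 14.35 in pluripotent cells) was at least 212-fold lower, the nuclear pore gene Nup210 (4.98 and 4.89 in MEFs, 12.83 to 14.05 in pluripotent cells) at least 149.9-fold and the adaptor gene Grb7 (4.98 and 5.09 in MEFs, 12.46 to 13.31 in pluripotent cells) at least 105-fold. Wfdc2, a secreted protease-inhibitor protein, had 4.91 and 5.26 in MEFs, against 12.06 to 15.07 in pluripotent cells, at least 181-fold lower. Since these genes were chosen by this contrast, their size is a description.
The mean of 6 groups hides genes for which fibroblasts lie between them. The MEF mean fell inside the range of the 6 pluripotent means for 2343 called genes, 1056 called higher and 1287 called lower. Called in both directions, higher than at least 1 group and lower than at least 1 other, were 1826 genes (17.4% of all tested); in 1661 of them both calls involved MEFs or a group with a detected signal. Against every one of the 6 groups in turn 2293 genes were higher in MEFs (21.9%) and 2341 lower (22.3%); these comparisons share the MEF arrays. The genes called against single groups numbered 8434 for serum GFP+RFP+ ESCs, 8378 for serum GFP+RFP- ESCs, 8379 for 2i ESCs, 8194 for EpiLCs, 8043 for EpiSCs and 8207 for O4-DE-GFP serum ESCs. Grem1, a secreted BMP antagonist of mesenchyme, had 12.12 and 12.21 in MEFs, against 12.65 and 12.66 in O4-DE-GFP serum ESCs, 10.58 and 10.39 in serum GFP+RFP+ ESCs, 5.99 and 6.15 in 2i ESCs and 5.86 and 8.78 in EpiSCs. By array levels 1 ESC group was above the fibroblasts and the other groups below. The difference of Grem1 was not called against O4-DE-GFP serum ESCs (-0.49, adjusted p = 0.527) or serum GFP+RFP- ESCs (1.55, adjusted p = 0.0592). Krt42, a type I keratin, had 5.32 and 5.63 in MEFs, against 11.71 and 11.77 in 2i ESCs, 5.51 and 5.12 in EpiLCs and 5.17 and 5.05 in EpiSCs. Its fibroblast level was that of the primed groups, far below the ESC groups. Krt42 was not detected in MEFs and was detected on 8 of the 12 pluripotent arrays, so its MEF level is background. Saa3, an acute-phase protein, had 5.76 and 5.71 in MEFs, against 13.62 and 13.62 in O4-DE-GFP serum ESCs and 5.48 and 5.32 in EpiLCs. It too was undetected in MEFs, with detection on 10 of the 12 pluripotent arrays, so its MEF level is only a bound. Xlr4a, an X-linked gene of the Xlr family, had 9.97 and 9.97 in MEFs, against 13.80 and 13.05 in EpiSCs and 5.47 to 6.54 on the other 10 arrays. The group-block fit made no call for Grem1, Krt42, Saa3 and Xlr4a (adjusted p = 0.186 to 0.407).

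**Figure D5:**
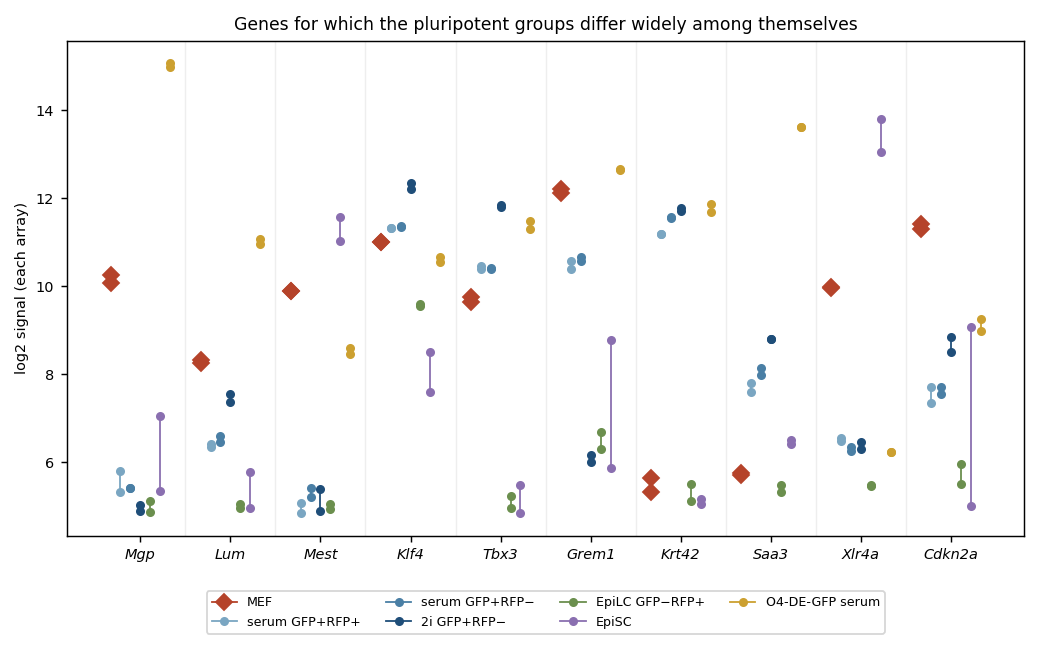
Log2 signal of 10 genes on all arrays; diamonds are the 2 MEF arrays and circles the arrays of the 6 pluripotent groups, joined by a line within a group. Mgp, Lum, Saa3 and Grem1 are highest in O4-DE-GFP serum ESCs, Mest and Xlr4a in EpiSCs, Klf4 and Tbx3 in 2i ESCs, and the MEF level of Krt42 is at that of the EpiLC and EpiSC arrays.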

How the data were processed

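Total RNA of 14 samples was amplified to biotinylated cRNA and hybridised to Illumina mouse beadchips, per the labels' protocols. The authors deposited scanner intensity and a detection p-value for each probe, not normalized per the file headers; GenomeStudio 2011.1 is named in the submitters' processing notes, and GEO's annotation gave 23978 of 25697 probes 1 gene symbol, 1719 none and 0 several. Their deposited table of log2 values equalled quantile-normalized scanner signal without background correction (100% of values within 0.01, largest difference 5.0e-07) and served as an alternative.
Intensities were corrected with neqc in limma 3.58.1 (R 4.3.3; normexp with detection p-values, offset 16), quantile-normalized and taken to log2. A gene was its brightest probe among those detected (p under 0.05) in the 2 arrays of 1 or more groups, leaving 10481 of 16590 symbols. Group means were fitted to all 14 arrays with lmFit and eBayes (7 residual degrees of freedom), with Benjamini-Hochberg adjustment over all genes. The number of arrays limits precision. Tested on simulated data over the 10481 genes, the fit recovered 100% of 50 genes lowered by 2 log2 units, 90% at 1 unit and 50% at 0.5. Of 50 genes raised by 0.5 it recovered 66%. The simulation changed far fewer genes than were called here and gave all groups the same mean otherwise. These rates therefore do not carry over to the fit of the real data.
Samples were grouped by title, with replicate numbers from the same label. The text names members of 43 lists, the 12 genes a side with the largest smallest difference over the 6 groups, the 10 with the largest pluripotent range, the 10 with the largest difference inside that range, and the promoters of called contractile genes with a CArG box. Of 818 list entries, 612 were tested, 86 had no named probe and 120 were not detected on both arrays of any group. Members and lists were chosen with earlier results of these data known. RefSeq promoters are of build GRCm38.p6. Alternatives were other normalizations, filters, probes and variance models, 2-group fits, a replicate block, and fits without each array or group.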

Additional observations from a re-analysis of the deposited data

Results flagged for a closer look

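For 4 genes the difference from MEFs changed with the pluripotent group, with the spread among the 6 groups tested by the moderated F test of the limma fit. Mgp was higher in MEFs than in 5 groups and lower than in O4-DE-GFP serum ESCs, and the 6 pluripotent means spanned 10.1 log2 units (F test, adjusted p = 8.35e-08). Mest was lower in MEFs than in EpiSCs and higher than in the other groups, over a span of 6.35 (adjusted p = 9.94e-09). Krt42 was lower in MEFs than in the 4 ESC groups, and its pluripotent means spanned 6.68 (adjusted p = 4.25e-10). Apoa2, an apolipoprotein, had 5.81 and 6.15 in MEFs, against 10.80 and 10.77 in 2i ESCs and 5.03 and 4.90 in EpiSCs, over a span of 5.82 (adjusted p = 1.03e-09). Krt42 and Apoa2 were not detected in MEFs or in EpiSCs, so their order between these groups was not measured, although both were called higher in MEFs there. For Mgp and Mest a single difference from the pluripotent mean, of 3.14 and 3.19, stands for groups on both sides of the MEF level.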

How the results depend on the processing

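The 8799 calls depended most on the unit of replication. With the 12 pluripotent arrays fitted as 1 group 5230 genes were called, 2574 higher and 2656 lower in MEFs, and with the labelled group added as a random block (consensus correlation 0.921) 2632, 1191 higher and 1441 lower, of which 2518 were at least 2-fold; all of these calls were among the 8799 in the same direction. Under the other alternatives the count of calls stayed within 1.5 times the main one. Fold sizes depended on the processing as well. Calls of at least 2-fold fell from 4652 to 3152 with the authors' deposited values and to 3976 with an offset of 50. Over all alternatives the difference ran from -8.68 to -6.37 for Pou5f1, 3.09 to 5.11 for Fap and 2.18 to 4.03 for Hoxd4. Leaving out single arrays gave 8113 to 9106 calls (3900 to 4315 higher, 4213 to 4799 lower), 4634 to 4698 at least 2-fold, 4188 to 4902 in the same direction against every group, and 9147 to 9644 for the F test among pluripotent groups. Median scaling moved the median difference of all genes to -0.22, against -0.09, and the higher share of calls to 41.7%, against 47.5%. With no detection filter 16590 genes were tested, and 5163 were higher and 4889 lower. A test against a 2-fold threshold (treat) called 3637 genes.
Replicate numbers did not pair the arrays: over the 21 pairs of groups the deviations of same-numbered arrays correlated at -0.03 to 0.09, none over 0.1. The replicate block gave 8786 calls, 4180 higher and 4606 lower. Slide as a block was not run, since the headers used here give no slide.
List medians near 0 changed sign, and the cause was not tested: antigen presentation to 0.0096 without the EpiSC and O4-DE-GFP groups (an alternative chosen after seeing the data); innate immunity to 0.0063, 0.017 and 0.0015 without serum GFP+RFP+, serum GFP+RFP- and O4-DE-GFP ESCs; FGF and LIF genes to 0.16 with no detection filter, 0.075 without 2i ESCs and 0.052 without O4-DE-GFP ESCs; muscle to 0.10 without EpiSCs and 0.12 without both groups; cartilage to 0.037 and 0.012 in the same fits; keratinocyte markers to 0.13 and extraembryonic endoderm to 0.22 with no detection filter. Klf4 changed to -0.023 without EpiSCs and -0.13 without both groups, and Tbx3 to -0.14 without EpiLCs and -0.12 without EpiSCs. A total of 1987 genes were not detected on either MEF array and 135 on no pluripotent array, so their folds are bounds.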
